A study of Zea mays with 12 samples.

Results

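The genes described here are 49 maize gene models, of 108342 in the deposited tables, whose transcripts were highest in endosperm at 10 days after pollination (DAP) in both of 2 reciprocal crosses. Endosperm is the seed tissue that receives sugars and amino acids from the mother plant and stores them as starch and protein. In the kernel it adjoins the embryo, which stores oil and globulins, and it is enclosed by maternal tissue (nucellus and pericarp). Sucrose synthases cleave incoming sucrose for starch and cell wall synthesis, while oleosins coat the oil bodies in which seeds keep triacylglycerol, mainly in embryo and aleurone.

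RNA of maize (Zea mays) inbred lines B73 and Mo17 and of their crosses was sequenced, with the mother written before the father. BxM is B73 crossed by Mo17 and MxB is Mo17 crossed by B73. Each cross has 1 library of whole kernels before pollination (0 DAP), 1 at 3 DAP and 1 at 5 DAP, and 1 library of endosperm at each of 7, 10 and 15 DAP, 12 in all. At 0 DAP no pollination had taken place, so the cross label there gives the mother. The 10 libraries of 0 to 10 DAP held between 59378582 and 70930121 counts each. At 15 DAP the totals were smaller, 35401314 in BxM and 39864984 in MxB. With 1 library per cross and age there is no replicate check at any single age. In these bulk samples fewer cells of a type and less RNA per cell cannot be told apart.

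The members were chosen from the authors' normalised signal, which is a count divided by the library total and an edgeR scaling factor. For each cross a score was taken as the log2 ratio of the signal at 10 DAP to the highest signal of the 5 other ages, with 1 added to each. A model needed a lower score of the 2 crosses above 1, which 72 models reached, fewer than the 150 allowed. Of these, 20 were left out because they average 5000 counts or more at 10 DAP yet are listed at 0 at 15 DAP in both crosses, and 3 because their counts equal those of a kept model. The age profiles below therefore describe the choice and carry no test. The lower score ran from 3.28 for AC233887.1_FG005 to 1.02 for GRMZM2G131476. The last 3 inside the limit were GRMZM2G036631 (1.04), GRMZM2G165726 (1.03) and GRMZM2G131476 (1.02), and the next 3 below it were GRMZM2G137550, GRMZM2G154652 and GRMZM2G419803, each at 0.98. As a frame for these numbers, 2499 of 41740 models (those with 100 or more counts over all libraries) had their highest signal at 10 DAP in both crosses.

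Members are not all separate genes. In 4 pairs the counts differed by at most 5% or 5 counts in every library: ole16 with GRMZM2G337238, OBAP2A with GRMZM2G344418, RNRS1 with GRMZM2G361166, and GRMZM2G425206 with GRMZM2G425231. The models GRMZM2G011240 and GRMZM2G311182 followed the sucrose synthase gene sus2 across the 12 libraries (Pearson r of log2 counts 0.98 for each), and whether these models share reads was not tested. Gene names were found for 15 members, a further 17 matched the reference table without a usable name, and 17 did not match it. Signal is not divided by transcript length, so levels are compared between libraries and not between genes.

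**Figure D1:**
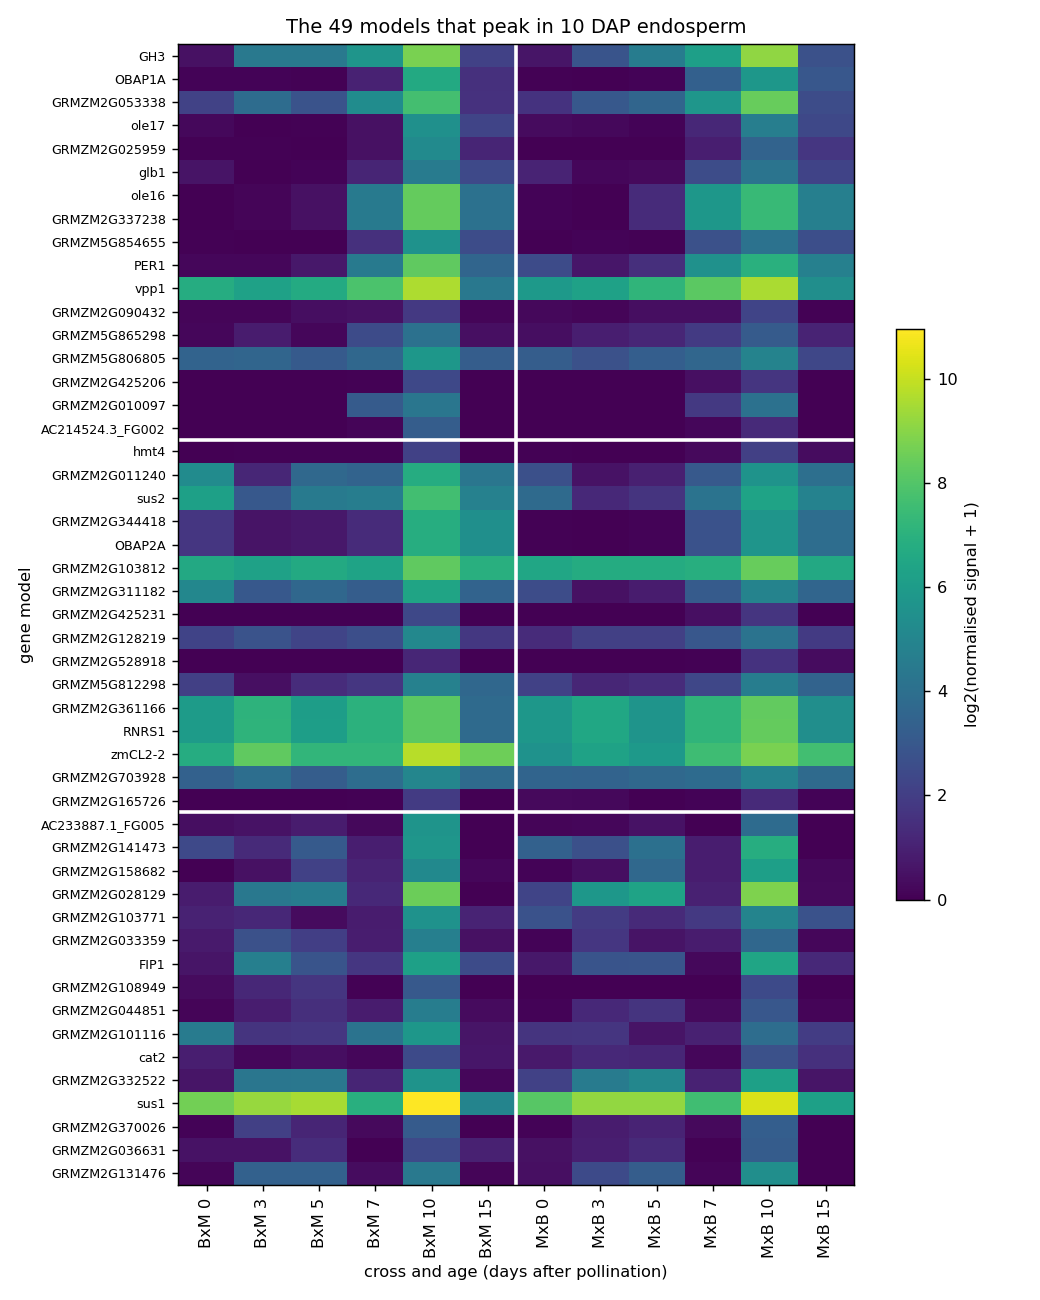
Colour gives log2(normalised signal + 1) of each of the 49 members (rows) in the 12 libraries (columns, BxM left of MxB, ages in DAP). White lines part the 17 members above their highest kernel level at 7 DAP in both crosses (top), the 16 with no common direction (middle) and the 16 below it (bottom), and the 10 DAP column is the brightest of each cross by the choice of members.

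The rise to 10 DAP started from different places. At 7 DAP, 17 members already stood above their highest kernel level in both crosses, 16 stood below it in both, and 16 had no common direction. These classes have no count floor. In BxM GRMZM2G425206 was above with 2 counts at 7 DAP and 2 at 0 DAP, while its near copy GRMZM2G425231, with 1 count at 7 DAP, was not. The next highest age was the same in both crosses for 27 members: 7 DAP for 12, 5 DAP for 8, 15 DAP for 6 and 3 DAP for 1. No more than 3 counts were found in any kernel library for 5 members, GRMZM2G425206, GRMZM2G425231, GRMZM2G528918, GRMZM2G010097 and AC214524.3_FG002. A count of 0 allows up to 3 counts, a signal of 0.0306 to 0.142 over the 12 libraries, and this limit covers counting error only. In contrast, 22 members were above 3 counts in all 12 libraries. The median log2 difference of 10 DAP from 7 DAP over the members was 3.08 in BxM and 2.30 in MxB, against -0.02 and 0.00 for the 41740 models. Together the 49 models held 0.659% (BxM) and 0.538% (MxB) of all counts at 10 DAP, and 0.0486% to 0.163% in the other 10 libraries.

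Genes of oil bodies and seed storage stood among the members that were low or absent in kernels. The oleosin gene ole16 had signals of 0, 0.10, 0.42, 21.4, 329 and 16.1 in BxM at 0, 3, 5, 7, 10 and 15 DAP. In MxB the same ages gave 0.06, 0, 1.53, 53.8, 164 and 25.7. Its level at 10 DAP was thus 15.4-fold that at 7 DAP in BxM and 3.04-fold in MxB. A second oleosin gene, ole17, had 0.39 at 7 DAP, 44.5 at 10 DAP and 3.73 at 15 DAP in BxM. MxB gave 1.29, 24.6 and 4.23 for ole17, and neither cross exceeded 0.27 in kernels.

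OBAP1A and OBAP2A encode oil body-associated proteins and showed the same peak. For OBAP1A the signal at 7, 10 and 15 DAP was 1.09, 98.1 and 1.84 in BxM and 9.37, 55.1 and 6.85 in MxB, and it was at most 0.08 in kernels. OBAP2A had 1.58, 112 and 43.1 in BxM and 5.78, 50.6 and 14.2 in MxB at those ages. OBAP2A differed from the others in keeping 38.6% (BxM) and 28.0% (MxB) of its 10 DAP level at 15 DAP. In BxM kernels at 0 DAP it had 204 counts, against 45 for glb1, 16 for ole17, 13 for PER1, 6 for OBAP1A and 0 for ole16. This order did not hold in MxB kernels at 0 DAP. There OBAP2A had 4 counts, against 455 for PER1, 111 for glb1, 26 for ole17, 6 for ole16 and 5 for OBAP1A. The globulin gene glb1, which encodes a vicilin-like storage protein of the embryo, stood at 1.21, 22.6 and 4.34 in BxM and 4.78, 17.7 and 3.58 in MxB. PER1, a peroxiredoxin gene of the kind that protects seeds from oxidation, had 21.7, 313 and 10.95 in BxM and 46.1, 122 and 26.2 in MxB. In all 6 of these named genes BxM was the lower cross at 7 DAP and the higher one at 10 DAP. They were picked out after their values were seen.

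**Figure D2:**
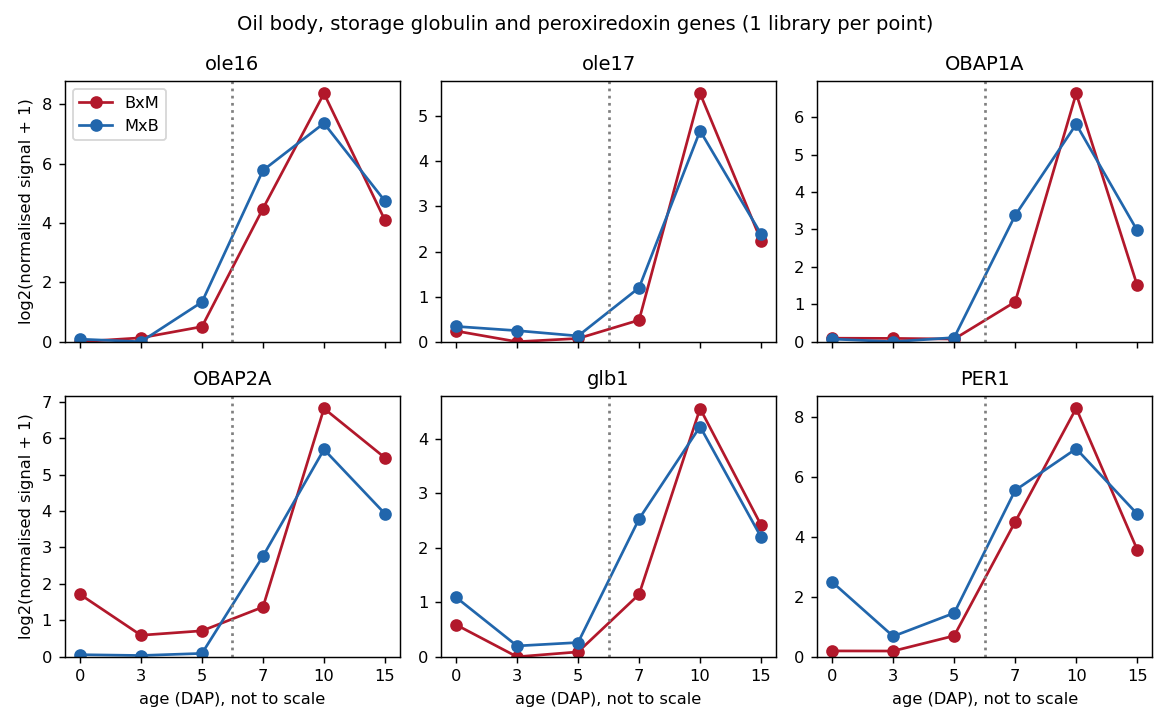
Lines join log2(normalised signal + 1) of ole16, ole17, OBAP1A, OBAP2A, glb1 and PER1 over age in DAP (spaced evenly), BxM in red and MxB in blue, 1 library per point, with a dotted line between kernels and endosperm. Each gene peaks at 10 DAP, where BxM lies above MxB, while at 7 DAP BxM lies below MxB, as for ole16 with 329 against 164 and 21.4 against 53.8.

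Embryo markers were read beside this group. Of 6 matched embryo marker models, 3 (ole16, listed as ole1, ole17 and glb1) are members, so their peak restates the rule. With these 3 the summed signal of the list was 35.1, 422 and 24.3 in BxM and 71.3, 220 and 35.6 in MxB at 7, 10 and 15 DAP. The 3 models that are not members summed to 12.0, 25.3 and 0.14 in BxM and 11.5, 13.6 and 2.11 in MxB. Most of that was vp1, a regulator of seed maturation that aleurone also expresses, with 24.95 in BxM and 13.4 in MxB at 10 DAP. The embryo regulator lec1 had 0.16 in BxM and 0 in MxB at 10 DAP, and 1.001 and 1.504 at 7 DAP. The dehydrin gene rab17 had 0.20 in each cross at 10 DAP and stood highest in unpollinated kernels. The part of embryo tissue in the levels of the members was not tested.

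The 17 members that stood above kernels at 7 DAP also held genes present throughout. GH3, of the family that joins auxin to amino acids, had 0.41, 20.8, 20.3, 52.0, 434 and 3.30 in BxM from 0 to 15 DAP. In MxB it had 0.55, 6.23, 23.1, 71.5, 566 and 5.59. At 15 DAP the GH3 level was 0.76% (BxM) and 0.99% (MxB) of that at 10 DAP. The vacuolar proton pyrophosphatase gene vpp1, a marker of aleurone in the list used here, had 109, 75.6, 102, 230, 767 and 19.8 in BxM and 57.3, 76.9, 144, 293, 756 and 42.0 in MxB. It was the only member among the 8 aleurone models, and the list without it summed to 390, 1037 and 769 in BxM and 519, 733 and 719 in MxB at 7, 10 and 15 DAP. GRMZM2G053338, without a name, had 204 in BxM and 333 in MxB at 10 DAP, against 39.5 and 52.6 at 7 DAP. GRMZM2G010097 was listed at 0 in all kernels and at 15 DAP, with 7.89 (BxM) and 2.51 (MxB) at 7 DAP and 18.77 and 16.02 at 10 DAP.

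In 16 members the signal at 7 DAP was below that of at least 1 kernel age in both crosses, before the peak at 10 DAP. GRMZM2G028129 had 0.78, 20.2, 23.4, 1.43, 355 and 0 in BxM from 0 to 15 DAP, and 3.68, 53.8, 79.8, 1.02, 450 and 0.22 in MxB. GRMZM2G332522 had 18.5, 19.4, 1.18, 48.5 and 0.14 in BxM from 3 to 15 DAP, and 22.2, 33.0, 1.05, 74.4 and 0.54 in MxB. GRMZM2G131476 followed the same course, with 9.50, 0.27 and 20.6 in BxM and 8.43, 0.12 and 41.2 in MxB at 5, 7 and 10 DAP. FIP1 had its kernel maximum at 3 DAP in BxM (25.2), and had 2.31 at 7 DAP and 73.1 at 10 DAP in endosperm. In MxB it had 6.25, 0.18 and 86.9 at these ages. Both crosses thus shared the low value at 7 DAP for each of these genes, although no test was made of it. Between 5 and 7 DAP the samples also change from whole kernels to endosperm. Age and tissue cannot be told apart at this step.

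The remaining members of this kind include some of the highest scores. AC233887.1_FG005 was at most 0.77 in every other library and had 49.6 in BxM and 13.1 in MxB at 10 DAP. GRMZM2G141473 had 7.68, 0.86 and 52.6 in BxM and 15.4, 0.81 and 111 in MxB at 5, 7 and 10 DAP. Both models are listed at 0 in both 15 DAP libraries, and the mean count of GRMZM2G141473 at 10 DAP, 4664.5, lies little under the 5000 from which such zeros were set aside as doubtful. GRMZM2G158682 had 3.28, 1.12 and 36.2 in BxM and 11.9, 0.81 and 71.3 in MxB. GRMZM2G103771 had 46.9 in BxM and 29.4 in MxB at 10 DAP, and GRMZM2G033359 had 25.6 and 11.7. The catalase gene cat2, which encodes an enzyme that breaks down hydrogen peroxide, was low throughout, at 4.52 in BxM and 5.56 in MxB at 10 DAP.

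**Figure D3:**
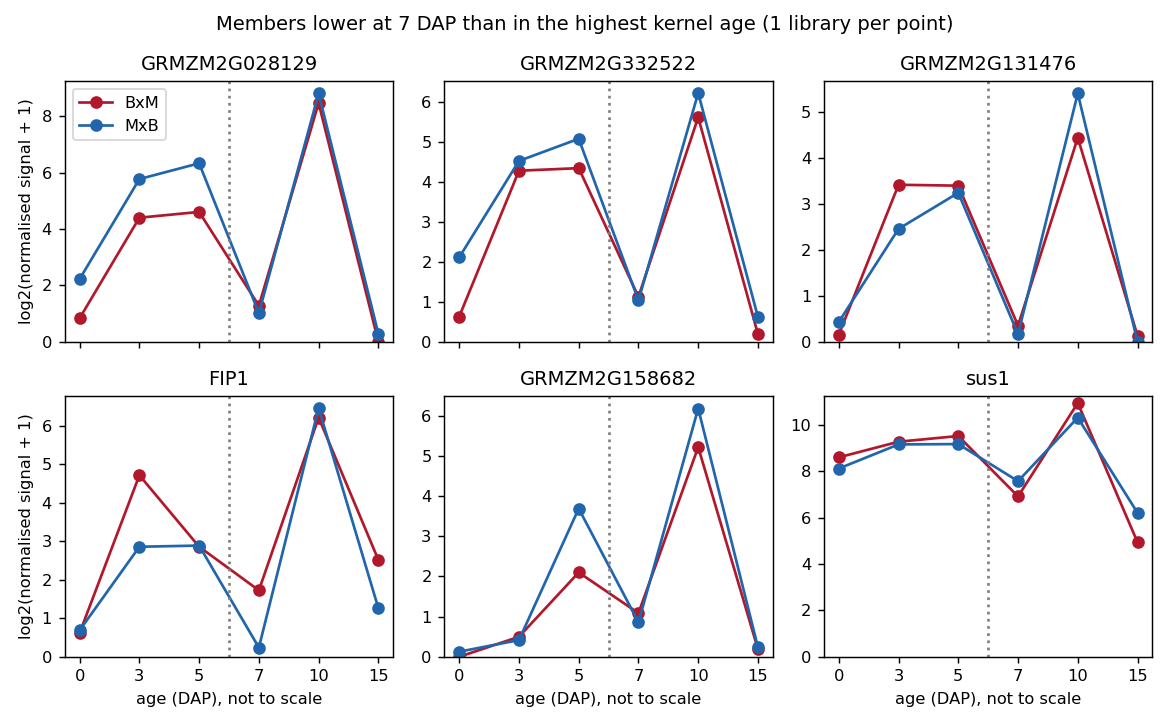
Lines join log2(normalised signal + 1) of 6 members that were lower at 7 DAP than in their highest kernel age, over age in DAP (spaced evenly), BxM in red and MxB in blue, 1 library per point, with a dotted line between kernels and endosperm. GRMZM2G028129 stands at 1.43 (BxM) and 1.02 (MxB) at 7 DAP and at 355 and 450 at 10 DAP.

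The summed signal of maternal kernel tissue markers was also high in kernels and low at 7 DAP. Of the 8 models, 4 were higher at 10 than at 7 DAP in both crosses. The 8 matched models of ovule MADS-box and pericarp genes, none a member, summed to 915, 10.47, 79.6 and 2.83 in BxM at 5, 7, 10 and 15 DAP. In MxB the sums were 799, 10.1, 185 and 2.33. The ovule gene zag2 had 51.8 in BxM and 97.8 in MxB at 10 DAP, and bde1 12.7 and 69.4. In contrast, zmm8, at 259 in BxM and 178 in MxB kernels at 5 DAP, stayed low in endosperm. It had 2.85 and 1.62 in BxM and 2.33 and 3.71 in MxB at 7 and 10 DAP. The models of zmm2, zag5 and p1 were low in kernels too, at 12.74 or less. Of the 16 members below a kernel age at 7 DAP, 9 were higher in MxB and 7 in BxM at 10 DAP, and 44.8% of all models were higher in BxM there, so this count was near the background. The part of maternal tissue in these members was not tested.

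**Figure D4:**
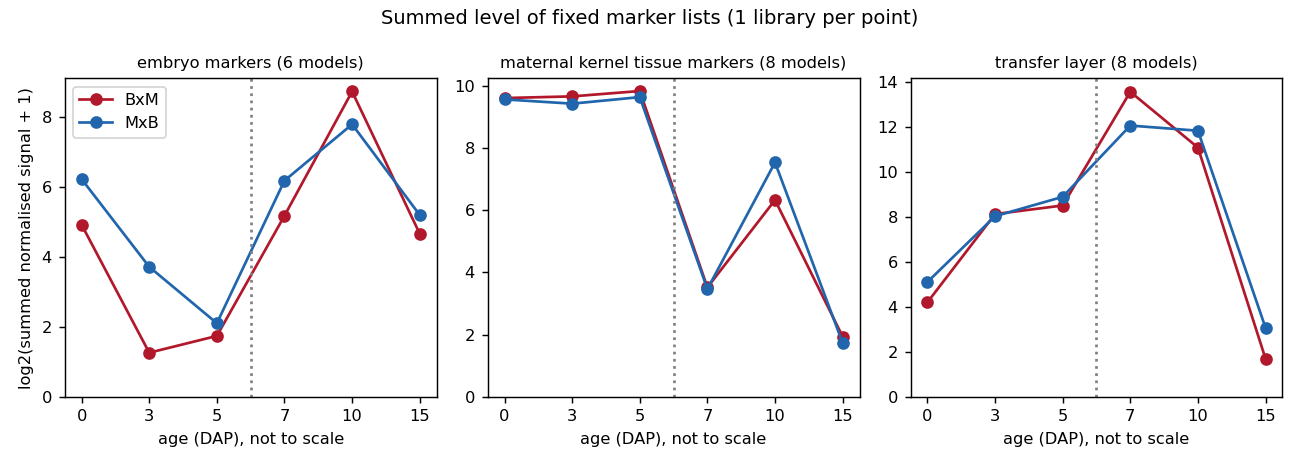
Lines join log2(summed normalised signal + 1) of 3 marker lists over age in DAP (spaced evenly), BxM in red and MxB in blue, 1 library per point. Embryo markers reach 422 (BxM) and 220 (MxB) at 10 DAP, but 3 of the 6 models are members, so this peak restates the rule. Without the members the sums are 25.3 and 13.6. Maternal kernel tissue markers return to 79.6 and 185 at 10 DAP. Transfer layer markers fall from 11946 (BxM) and 4222 (MxB) at 7 DAP to 2144 and 3603 at 10 DAP.

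Sucrose synthase genes were the members from the starch pathway. Of 17 matched starch models, sus1 and sus2 were members, and 13 of the 17 were higher at 10 than at 7 DAP in both crosses, while 7 were lower at 15 than at 10 DAP in both. Another sucrose synthase gene, sh1, is among the models left out for zeros at 15 DAP. For sus1 the signal was 389, 621, 737, 120, 1978 and 29.8 in BxM from 0 to 15 DAP, and 278, 573, 579, 190, 1279 and 73.2 in MxB. sus2 had 74.3, 7.08, 21.1, 23.9, 199 and 27.0 in BxM, and 12.7, 1.37, 2.11, 16.9, 80.8 and 28.2 in MxB. The ADP-glucose pyrophosphorylase gene sh2 was higher at 15 DAP, where both sucrose synthase members were lower, and had 2065 and 10327 in BxM and 2104 and 11919 in MxB at 10 and 15 DAP. Of 33 storage protein models 1, glb1, was a member. Among them 9 were highest at 10 DAP in both crosses, and the other 8, all zein genes, were left out for zeros at 15 DAP. There were no members among 12 endosperm transcription factor, 8 transfer layer, 4 embryo-surrounding, 7 photosynthesis and 8 cell cycle models.

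Some named members were expressed at every age, and hmt4 was not. RNRS1, the small subunit of ribonucleotide reductase, which makes deoxynucleotides for DNA synthesis, had 63.999, 136, 68.6, 131, 290 and 12.9 in BxM and 54.6, 91.8, 50.5, 141, 324 and 41.0 in MxB. zmCL2-2 had 147, 887 and 367 in BxM and 184, 423 and 199 in MxB at 7, 10 and 15 DAP, and GRMZM2G103812 had 80.0, 305 and 119 in BxM and 116, 336 and 97.6 in MxB. These models kept far more of their 10 DAP level at 15 DAP than RNRS1. hmt4, a homocysteine methyltransferase gene of methionine synthesis, had at most 5 counts in any kernel library, 2 counts in BxM and 14 in MxB at 7 DAP, and 0 and 8 at 15 DAP. Its signal was 3.40 in BxM and 3.26 in MxB at 10 DAP.

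The fall after 10 DAP was deeper in BxM for 31 members and in MxB for 10, while 8 were at 0 in both crosses. As a background, 37736 models had 100 or more counts over all libraries and signal at 10 DAP in both crosses. Their ratio of 15 to 10 DAP was lower in BxM for 49.3% and in MxB for 43.3%. Models that rose after 10 DAP are included there, so the background is not one of falling models only. The fall of the members starts from the level that chose them, so these counts are a description. At 15 DAP the median member held 2.59% of its 10 DAP level in BxM and 12.7% in MxB, and 32 members were under 5% in BxM against 20 in MxB, 18 in both. At the other end, 7 members in BxM and 15 in MxB kept more than 20%, with zmCL2-2 at 41.4% and 47.1% and GRMZM5G812298 at 42.4% and 42.8%. In 27 members the 15 DAP level lay below that of 7 DAP in both crosses and in 12 it lay above. Since 8 members are listed at 0 in both 15 DAP libraries, and 20 more abundant models were left out for such zeros, the depth of the fall of those 8 is uncertain.

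The members were not chosen for a difference between crosses. Because the rule takes the lower score of both crosses from the same libraries, it favours models that behave alike in both, and a low number of calls between crosses is partly set by it. Counts of the 6 endosperm libraries were compared between BxM and MxB with edgeR's quasi-likelihood test, age as a term and Benjamini-Hochberg adjustment over 38893 models (threshold 0.05, 2 residual degrees of freedom). The p-values measure how evenly the crosses differ over 3 ages, not the spread between plants. None of the 49 members passed, and over all models edgeR called 0.0489% (0.0386% higher and 0.0103% lower in BxM). Of the members 7 had an unadjusted edgeR p under 0.05, against 10.8% of all models, and DESeq2 called 1, GRMZM2G044851, against 2.77% of all models. Neither count stood apart from the background. The lowest edgeR adjusted p of a member was 0.158 for GRMZM2G044851 (log2 fold change 1.79, SE 0.37). This model had 24.0 in BxM and 6.82 in MxB at 10 DAP and was higher in BxM at all 3 ages. At 15 DAP it had only 5 counts in BxM and 3 in MxB. AC233887.1_FG005 had a log2 fold change of 2.29 (SE 0.56, edgeR adjusted p = 0.234). Its counts in BxM and MxB were 11 and 0 at 7 DAP, 2426 and 798 at 10 DAP, and 0 in both at 15 DAP. That fold thus rests mostly on the 10 DAP libraries. GRMZM2G053338 had a log2 fold change of -0.74 (SE 0.21, edgeR adjusted p = 0.282). Without the 7 DAP libraries OBAP2A, its near copy GRMZM2G344418 and zmCL2-2 passed, all higher in BxM, against 0.846% of all models in that fit.

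The side of the cross difference is given by age as a description, since the rule used the values of every age in both crosses. At 10 DAP, 33 of 49 members were higher in BxM and 16 in MxB, with a median log2 ratio of 0.63, whereas 44.8% of the 41740 models were higher in BxM. At 7 DAP 21 members and at 15 DAP 14 members were higher in BxM, with medians of -0.06 at each age. Of the 41740 models, 48.6% and 41.0% were higher in BxM at these ages. BxM was below MxB at 7 DAP and above it at 10 DAP in 21 members (42.9%), against 19.1% of the 41740 models. Of these 21 members, 13 were again lower in BxM at 15 DAP, among them ole16, ole17, OBAP1A, PER1, vpp1 and sus1. The share of all models with that return was not computed, so it is not read as a trait of the members. Near copies are counted separately here, so the 21 stand for fewer genes. They are ole16 with GRMZM2G337238, OBAP2A with GRMZM2G344418, and GRMZM2G425206 with GRMZM2G425231. The opposite turn, BxM above at 7 DAP and below at 10 DAP, was seen in 9 members (18.4%), near the 22.6% of the 41740 models. Examples are GRMZM2G028129, GRMZM2G332522, GRMZM2G131476, FIP1 and cat2. With 1 library per cross and age these turns were not tested.

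In kernels some members differed between the crosses, and a larger share of all models passed than in endosperm (11.9% against 0.0489%). The gap was smaller at an unadjusted edgeR p under 0.05, with 11835 of 43547 models in kernels and 4211 of 38893 in endosperm. Such shares depend on how evenly the crosses differ over the ages and do not measure the size of the difference. The comparison of the 6 kernel libraries of 0, 3 and 5 DAP was added after the data were seen and fitted in the same way over 43547 models. Its 0 DAP libraries are unpollinated kernels of B73 and Mo17, so in part it compares the mothers. Of the 40 members with enough counts to enter, 8 passed, 7 higher and 1 lower in BxM. All models gave 11.9% (6.06% higher and 5.8% lower). Because OBAP2A and GRMZM2G344418 are near copies in counts, and GRMZM2G011240 and GRMZM2G311182 follow sus2, the 8 stand for fewer genes. Their count is therefore not read as a trait of the members. B73 appears in the column headers of the count table, and what mapping to B73 alone would do to Mo17 reads was not tested.

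The sucrose synthase gene sus2 had 74.3, 7.08 and 21.1 in BxM kernels at 0, 3 and 5 DAP, against 12.7, 1.37 and 2.11 in MxB kernels. The groups were apart at each age, with a log2 fold change of 2.72 (SE 0.29, edgeR adjusted p = 0.00702). OBAP2A had 2.28, 0.51 and 0.64 in BxM kernels, against 0.04, 0.02 and 0.07 in MxB kernels (4.40, SE 0.87, edgeR adjusted p = 0.0296), with 2 to 5 counts in the MxB libraries. zmCL2-2 had 108, 305 and 148 in BxM kernels, against 46.4, 78.1 and 58.6 in MxB kernels (1.48, SE 0.28, edgeR adjusted p = 0.0249). GRMZM2G108949 had 21, 82 and 171 counts in BxM kernels, against 2, 2 and 0 in MxB kernels (5.71, SE 1.23, edgeR adjusted p = 0.0373). The member that was lower in BxM was GRMZM2G028129, with 0.78, 20.2 and 23.4 in BxM and 3.68, 53.8 and 79.8 in MxB (-1.82, SE 0.27, edgeR adjusted p = 0.0138). GRMZM2G011240 (2.68, edgeR adjusted p = 0.021) and GRMZM2G311182 (3.56, edgeR adjusted p = 0.00775) went with sus2. Without the 0 DAP libraries 3 members passed (7.78% of all models did), sus2, GRMZM2G311182 and GRMZM2G108949, and GRMZM2G108949 did not pass without the 3 DAP or without the 5 DAP libraries.

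**Figure D5:**
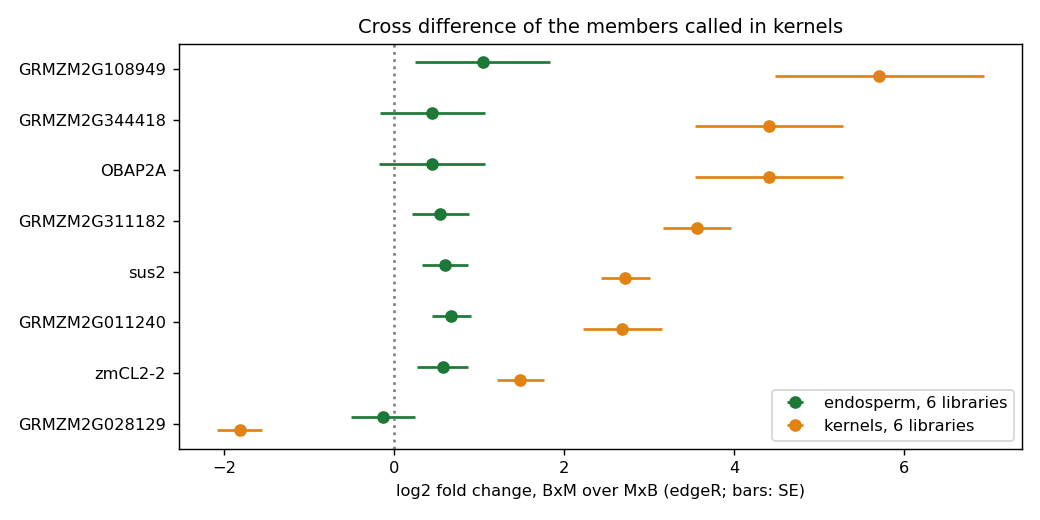
Points give the edgeR log2 fold change of BxM over MxB with its SE (bars) for the 8 members that passed in kernels, from the 6 endosperm libraries (green) and the 6 kernel libraries (orange). For sus2 the difference is 0.60 in endosperm and 2.72 in kernels, and for GRMZM2G028129 it is -0.14 and -1.82.

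The cross difference of sus2 was smaller in endosperm than in kernels. Its log2 fold change of BxM over MxB was 0.60 (SE 0.27) in endosperm and 2.72 (SE 0.29) in kernels. A fit of all 12 libraries with a term for the difference of the cross effect between endosperm and kernels, also added after the data were seen, gave -2.17 (SE 0.42, edgeR adjusted p = 0.0238) for sus2. GRMZM2G311182 gave -3.06 (SE 0.56, edgeR adjusted p = 0.0181). These were the 2 of 49 members that passed, both negative, against 3.86% of 46378 models (1.82% positive and 2.04% negative), so the members' count was near the background. OBAP2A had -4.11 (SE 1.07, edgeR adjusted p = 0.0766) and did not pass. sus2 did not pass without the libraries of 0, 5, 7 or 15 DAP, nor GRMZM2G311182 without those of 7 or 15 DAP, and in each case the difference stayed negative. Tissue and age change together between the groups, and the kernel group also includes the unpollinated kernels of B73 and Mo17. These differences cannot be told apart.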

How the data were processed

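RNA of 12 samples, 1 library for each cross and age, was sequenced. Per the labels' protocols RNA was extracted from 36 groups of plant material (3 replicates a sample). Only 1 column per sample was given, and whether the replicates were pooled is not stated. Raw counts per gene model were deposited by the authors. Bowtie and bedtools are listed, without versions, in the submitters' processing notes. For genome build and annotation the labels state nothing. The second deposited table holds normalised signal, made by the authors with edgeR's TMM factors and scaled to library size, per the note deposited with the files. The signal was used to choose and describe members, and the counts were used for the tests.

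The members and lists were chosen with earlier results of these data known. Tests used edgeR 4.0.16 in R 4.3.3 (filterByExpr on the design, TMM, glmQLFit, glmQLFTest), with p-values adjusted over all models tested. SE values were derived from the F statistic. The 20 models listed at 0 at 15 DAP stayed out of the fits. DESeq2 1.42.0, other scaling factors, no filter, and leaving out an age were alternatives. The script was tested on simulated data. Named members are those with the 10 largest lower scores, the 10 largest counts at 10 DAP, a usable name, a place in a list, a call between crosses, or a place at the limit. Others, such as GRMZM2G044851, GRMZM2G332522, GRMZM2G010097, GRMZM2G528918, GRMZM5G812298 and members of near-identical pairs, were named after their values were seen. Of the embryo-surrounding, storage and other lists, names were matched through the Zm-B73-REFERENCE-NAM-5.0 gene table. That table gives no protein descriptions, so planned classes by description and the transport list were not made, and promoter motifs were not searched. Intervals and limits cover counting error only.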

Additional observations from a re-analysis of the deposited data

Results flagged for a closer look

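The cross difference of sus2 was smaller in endosperm than in kernels by the test of that difference given above (log2 difference -2.17), and so was that of GRMZM2G311182 (-3.06). RNRS1 and GRMZM2G361166, which are near identical in counts, stood out because BxM was lower than MxB at all 3 endosperm ages and higher at all 3 kernel ages. RNRS1 had 131, 290 and 12.9 in BxM and 141, 324 and 41.0 in MxB endosperm at 7, 10 and 15 DAP, and 63.999, 136 and 68.6 in BxM and 54.6, 91.8 and 50.5 in MxB kernels at 0, 3 and 5 DAP. The difference of the cross effect between endosperm and kernels was -1.04 for RNRS1 and -1.04 for GRMZM2G361166, and neither passed (edgeR adjusted p = 0.291 and 0.293). No group held 4 or more samples, so no sample was tested for standing apart from its group.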

How the results depend on the processing

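The choice of members depends on the scale. TMM factors computed here chose the same 49 models, DESeq2 size factors kept 38 of them and a minimum of 100 counts at 10 DAP kept 46. Scaling to library totals kept 30 and a pseudocount of 10 kept 23. A pseudocount of 0.1 chose 121 models, all 49 among them. Leaving 15 DAP or the kernel ages out of the highest other age filled all 150 places and kept 22 or 17. With a floor of 10 in place of 3 counts, 9 members were absent from kernels, 13 from 0 DAP, 6 from 7 DAP and 17 from 15 DAP, against 5, 5, 3 and 11.

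Between crosses in endosperm 19 models passed, against 2 with DESeq2 size factors, 920 with no filter, 5 with the models at 0 at 15 DAP kept, 1079 with DESeq2, and 289, 35 and 2 without the 7, 10 and 15 DAP libraries. Members called were 0, or 3 with no filter, 1 with DESeq2 and 3 without 7 DAP. In kernels 5161 models passed, against 9543 with DESeq2 and 3178 without 0 DAP, and 8 members, against 13 and 3. For the difference between endosperm and kernels 1789 passed, against 795 without 0 DAP, 676 without 7 DAP, 873 without 10 DAP and 1002 without 15 DAP. Members called there were 2, against 5 with no filter, 1 without 0 DAP, 3 without 3 DAP, and 0 without 7 DAP or 15 DAP. None of the 13 fold changes followed across these alternatives turned sign. The kernel and difference fits and the added settings were chosen after seeing the data. The causes were not tested.

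Replicates could not be paired because the labels give no replicate numbers. The fits compared the crosses within each age, with age as a term. Single libraries limit every value at one age, and members with few counts at 10 DAP, such as GRMZM2G528918 with 60 in BxM and 124 in MxB, are the least precise.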
